A study of Arabidopsis thaliana with 12 samples.

Results

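The genes described here are loci whose transcript level was lower in wild type (WT) seedlings after 7 d than after 1 d of constant red (Rc) light, and was higher in *sig2-2* than in WT after 7 d. The rule took every locus listed at 5 FPKM or more in WT at 1 d, with log2((WT 7 d + 1)/(WT 1 d + 1)) of -1 or less and log2((*sig2-2* 7 d + 1)/(WT 7 d + 1)) of 1 or more. The members were selected on these measured values. FPKM counts sequenced fragments relative to transcript length and to all mapped fragments. The rule gave 158 loci out of 33078 in the authors' table, whose loci are all placed on nuclear chromosomes. These 158 members are part of 14002 loci at 5 FPKM or more in WT at 1 d, of which 2439 (17.4%) were lower by 2-fold or more at 7 d in WT and 414 (2.96%) were higher by 2-fold or more in *sig2-2* at 7 d. Both percentages come from the contrasts that the rule used, so the values in WT at 1 d, WT at 7 d and *sig2-2* at 7 d are given as a description with no test. The only condition outside the rule is *sig2-2* at 1 d.

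Whole seedlings of the Col-0 ecotype, either WT or carrying the T-DNA allele *sig2-2* (SALK_045706, the only mutant line sequenced), were grown on MS medium with 1% sucrose at 22°C. Seeds were kept cold and dark for 4 days, and the plates then stood in Rc light of 50 μmol m−2 s−1 until the seedlings were 1 d or 7 d old. There were 3 samples of each genotype at each age and 12 in all, and the authors' files give 1 combined FPKM value for each of the 4 conditions. With no value per replicate, no error between replicates was computed, and the depth of each library is not given in the sources used here. Every count below is a count past a fold threshold, not of tested genes. In whole seedlings, fewer cells of a type and less RNA per cell cannot be told apart.

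SIG2 is a nuclear-encoded sigma factor that directs the plastid RNA polymerase to its promoters. A germinating oilseed lives on stored lipid and protein until its plastids can feed it. Fatty acids are cut into acetate units in the peroxisome. The glyoxylate cycle, with isocitrate lyase and malate synthase as its own enzymes, turns these units into precursors of sugar. Late embryogenesis abundant (LEA) proteins and other products of abscisic acid (ABA) signaling protect the dry seed, and their transcripts decline as the seedling becomes established. Genes of carbon starvation, such as the dark-inducible *DIN* and *SEN* genes, respond to a shortage of sugar at any age.

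*SIG2* (AT1G08540) itself had 66.5 FPKM (WT) and 1.31 FPKM (*sig2-2*) at 1 d, and 87.7 and 1.49 FPKM at 7 d. AT2G01021, a short locus of the ribosomal RNA gene cluster and itself a member, had the highest value in every condition. It held 32.6% of the summed FPKM in WT at 1 d, 25.5% in *sig2-2* at 1 d, 5.45% in WT at 7 d and 11.4% in *sig2-2* at 7 d. Across 16872 loci at 1 FPKM or more in all conditions, the median log2 difference between genotypes was -0.01 at 1 d and below 0.01 in size at 7 d, and between ages it was -0.17 in WT and -0.13 in *sig2-2*. Leaf markers were present at both ages, with 4 markers summing to 2758 FPKM (WT) and 3857 FPKM (*sig2-2*) at 1 d and to 49632 and 57638 FPKM at 7 d. At 7 d 1 of the 4 was higher in *sig2-2*, *LHCB1.3* (16930 and 35208 FPKM), whereas *RBCS1A* (22628 and 17384 FPKM), *RBCS2B* (6564 and 2791 FPKM) and *CA1* (3511 and 2255 FPKM) were lower. At 1 d *CA1* (carbonic anhydrase) was listed at 0.0454 FPKM in WT and at 0 in *sig2-2*. Of 2 endodermis markers, *CASP1* was listed at 0 in WT at 1 d, whereas *SCR* was at 27.9 FPKM (WT) and 28.3 FPKM (*sig2-2*) at 1 d. The phloem marker *SUC2* was at 19.5 FPKM or more in every condition.

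Of the 158 members, 124 were protein-coding genes of 300 bases or more. Here and below this length is that of the gene in RefSeq's TAIR10.1 annotation. The authors' table lists spans under 300 bases for some of the 124, among them AT3G25011, AT1G33640 and AT2G07825. The other 34 were 12 protein-coding loci under that length and 22 loci of other kinds, among them 6 tRNAs, 5 snoRNAs, 4 miRNA precursors and 2 rRNAs. Protein-coding loci made up 86.1% of the members and 97.9% of all loci at the floor of 5 FPKM. The libraries were made with an mRNA kit, which does not target mature small RNAs. The short loci crowd the top of the list, since 9 of the 10 members with the largest difference between genotypes at 7 d were not protein-coding genes of 300 bases or more. The members lay on all chromosomes, with 40 on chromosome 1, 31 on chromosome 2, 34 on chromosome 3, 17 on chromosome 4 and 36 on chromosome 5. On chromosome 2, AT2G07725 and AT2G07671 were named from their position, and the authors' table lists them under mitochondrial identifiers (*RPL5*, ATMG00210, and *ATP9*, ATMG01080). Whether their fragments came from mitochondrial transcripts was not tested. For 14 members the authors' table gave the same span to another locus, so that fragments of both could have been split between them. Examples are the snoRNA *U60.2F* within *FIB2*, and *AFP1* with *RPK1*.

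The promoters of ABA-related members are shown first, because most hold letters that bZIP factors of ABA signaling, among others, are known to bind. Each is the 250 bases before the annotated gene start in RefSeq's TAIR10.1 annotation, read 5′ to 3′ along the gene, with ACGTG on either strand in capitals. *HVA22B*, *LTI65* (also called *RD29B*), *LEA18* and AT3G15670 are ABA or LEA genes, *SOM* is an ABA-related member without the letters, and *ICL* and *DIN10* stand for lipid use and starvation.
HVA22B, chr5:25089841-25090090, plus strand: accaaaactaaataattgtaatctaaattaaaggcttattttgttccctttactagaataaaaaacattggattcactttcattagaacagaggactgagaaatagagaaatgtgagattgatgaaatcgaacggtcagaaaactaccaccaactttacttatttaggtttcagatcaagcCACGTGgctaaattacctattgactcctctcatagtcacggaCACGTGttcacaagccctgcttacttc
LTI65, chr5:21236771-21237020, plus strand: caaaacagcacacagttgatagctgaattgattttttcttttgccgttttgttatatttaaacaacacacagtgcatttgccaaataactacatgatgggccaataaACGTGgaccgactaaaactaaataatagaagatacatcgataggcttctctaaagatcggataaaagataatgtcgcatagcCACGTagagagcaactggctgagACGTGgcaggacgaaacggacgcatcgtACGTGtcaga
LEA18, chr2:14863413-14863662, minus strand: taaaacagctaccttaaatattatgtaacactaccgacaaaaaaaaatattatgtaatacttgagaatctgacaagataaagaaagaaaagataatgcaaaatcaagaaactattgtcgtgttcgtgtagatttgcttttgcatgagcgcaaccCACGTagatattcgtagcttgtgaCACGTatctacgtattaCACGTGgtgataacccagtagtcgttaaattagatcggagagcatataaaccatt
AT3G15670, chr3:5310989-5311238, minus strand: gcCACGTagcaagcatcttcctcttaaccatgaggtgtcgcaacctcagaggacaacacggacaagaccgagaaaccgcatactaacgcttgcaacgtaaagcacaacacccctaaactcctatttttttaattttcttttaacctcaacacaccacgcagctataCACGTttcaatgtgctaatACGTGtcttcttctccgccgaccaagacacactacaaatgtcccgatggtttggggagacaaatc
SOM, chr1:954040-954289, plus strand: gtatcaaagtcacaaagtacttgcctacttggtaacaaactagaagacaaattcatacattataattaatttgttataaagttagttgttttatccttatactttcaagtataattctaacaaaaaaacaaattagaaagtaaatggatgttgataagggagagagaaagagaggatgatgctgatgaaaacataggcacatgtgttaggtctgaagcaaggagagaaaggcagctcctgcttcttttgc
ICL, chr3:7656054-7656303, minus strand: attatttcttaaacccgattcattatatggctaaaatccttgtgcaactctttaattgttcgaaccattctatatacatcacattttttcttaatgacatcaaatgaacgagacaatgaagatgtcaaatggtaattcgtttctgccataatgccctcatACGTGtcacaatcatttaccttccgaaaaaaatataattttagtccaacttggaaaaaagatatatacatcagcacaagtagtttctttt
DIN10, chr5:6833314-6833563, plus strand: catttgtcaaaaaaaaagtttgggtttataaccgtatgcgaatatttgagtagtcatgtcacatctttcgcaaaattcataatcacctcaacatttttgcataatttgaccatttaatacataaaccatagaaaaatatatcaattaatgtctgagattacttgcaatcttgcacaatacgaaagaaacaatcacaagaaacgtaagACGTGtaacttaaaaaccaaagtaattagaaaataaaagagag

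The letters ACGTG, the core of the ABA-responsive element, were in 14 of 15 promoters (93.3%) of the ABA and LEA group, over a window of 250 bases before to 50 bases after the start. The same window held them in 54 of 136 protein-coding members (39.7%), 658 of 2207 other protein-coding loci that were lower with age in WT (29.8%), and 7333 of 27443 protein-coding genes of the annotation (26.7%). The G-box CACGTG, which contains ACGTG on both strands and so counts as a pair of matches, was in 46.7% of the ABA and LEA promoters, 13.97% of the member promoters and 7.68% of all promoters. The dehydration element core CCGAC was in 53.3% of the ABA and LEA promoters, 18.4% of members and 15.0% of all promoters. The 15 genes were put together after their values had been seen, and a match describes letters, not a bound site.

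For the other motifs, differences from the background went both ways. The RY repeat core CATGCA, known from seed genes, was in 16.2% of member promoters and 9.72% of all promoters, and the I-box core GATAA was in 72.1% and 60.8%. The telo box AAACCCTA, known from genes of ribosome production, was in 2.21% of member promoters, 12.7% of the other loci lower with age and 6.22% of all promoters. The site II element TGGGCC was in 16.9%, 26.4% and 15.5% of these sets. ACTCAT was in 13.97% of members and 14.7% of all promoters, TATCCA in 18.4% and 16.1%, the W-box core TTGAC in 52.9% and 50.5%, the evening element AAAATATCT in 5.15% and 2.82%, and the GCC box GCCGCC in 0.735% and 2.57%.

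**Figure D1:**
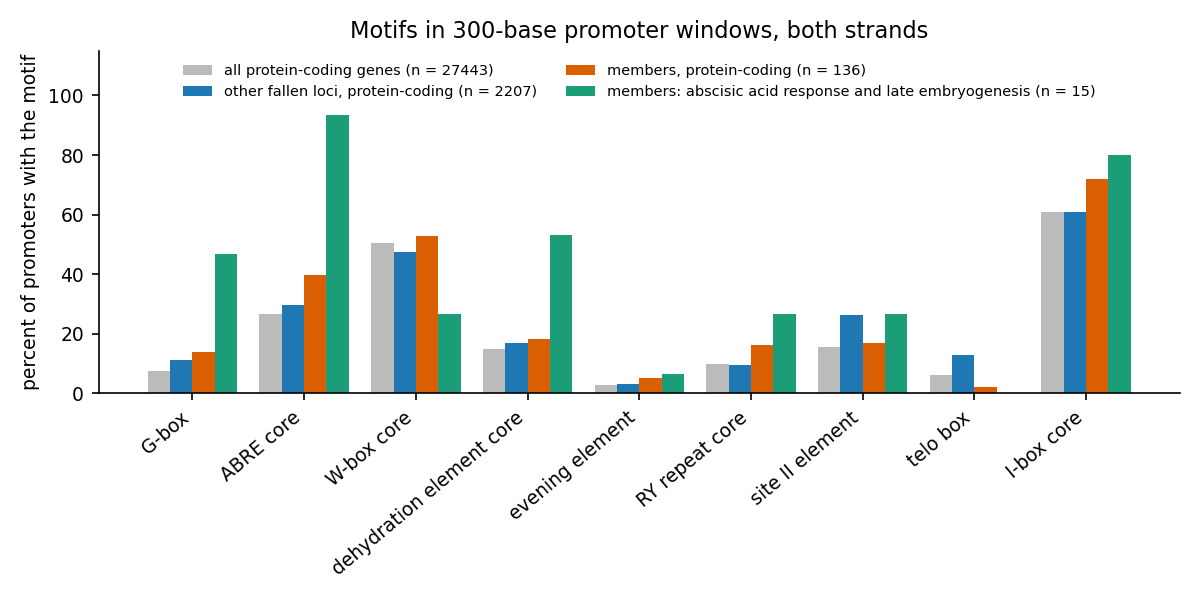
Bars give the percent of promoters (y axis) that hold each motif on either strand, in windows of 300 bases, for all protein-coding genes, other loci lower with age in WT, protein-coding members and the 15 ABA and LEA members. The ABA and LEA bar of the ABRE core stands at 93.3%, above 39.7% for the members and 26.7% for all genes.

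The largest WT falls with age belonged to genes that use stored lipid. *ICL* (AT3G21720), isocitrate lyase, had 4368 FPKM (WT) and 5310 FPKM (*sig2-2*) at 1 d, and 1.25 and 35.2 FPKM at 7 d. *MLS* (AT5G03860), malate synthase, was at 1830 and 2026 FPKM at 1 d and at 1.79 and 18.1 FPKM at 7 d. The WT level was 3495-fold lower at 7 d than at 1 d for *ICL* and 1022-fold lower for *MLS*, and the *sig2-2* level at 7 d was 28.2-fold and 10.08-fold that of WT. Even so, the *sig2-2* level at 7 d was 0.806% of the WT level of 1 d for *ICL* and 0.987% for *MLS*, and in *sig2-2* too both were lower at 7 d, with log2 changes of -7.20 and -6.73. *ACX4* (AT3G51840), a short-chain acyl-CoA oxidase of peroxisomes, kept more of its level, at 186.6 and 192.6 FPKM at 1 d and 60.1 and 129 FPKM at 7 d. Of 21 genes listed for the glyoxylate cycle, gluconeogenesis and β-oxidation, 19 were at the floor and 15 were lower by 2-fold with age in WT, and of these 3 were members. The symbol *KAT2* in this list was matched to AT4G18290, which is not a β-oxidation gene and was below the floor.

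The 4 starvation, senescence and autophagy genes were higher, not lower, at 7 d than at 1 d in the mutant. *SEN1* (AT4G35770), a senescence-associated gene also known as dark-inducible, had 25.6 FPKM (WT) and 53.1 FPKM (*sig2-2*) at 1 d, and 7.94 and 186 FPKM at 7 d. *DIN10* (AT5G20250), a raffinose synthase family gene, was at 189.9 and 254 FPKM at 1 d and at 73.5 and 492 FPKM at 7 d. *SAG21* (AT4G02380), a LEA family gene known from senescing leaves, was at 796 and 943 FPKM at 1 d and at 243 and 1772 FPKM at 7 d. In all 3 the *sig2-2* level at 7 d was the highest of the 4 conditions, at 726% of the WT level of 1 d for *SEN1*, 259% for *DIN10* and 223% for *SAG21*. *ATG8B* (AT4G04620), an autophagy ubiquitin-like protein, was at 31.8, 18.5, 14.7 and 40.05 FPKM in WT 1 d, *sig2-2* 1 d, WT 7 d and *sig2-2* 7 d.

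Most genes of the starvation and amino acid lists that were higher in *sig2-2* at 7 d are not members, because their WT level was not lower by 2-fold at 7 d. Of 12 sugar starvation and dark response genes at the floor, 10 were higher by 2-fold in *sig2-2* at 7 d, but 2 were lower with age in WT, and these 2 (*SEN1* and *DIN10*) are the members. Of 16 amino acid catabolism genes at the floor, 9 were higher at 7 d and 0 were lower with age in WT. The autophagy and senescence list had 2 members of 17 genes at the floor, and the abscisic acid and dehydration list 2 of 18. The seed storage, oil body and LEA list had 1 of 13, and the galactinol and raffinose list 1 of 4. The 13 include AT1G09340, matched to the symbol *CRB* though not a seed storage gene, at 30.7 and 879 FPKM in WT at 1 d and 7 d. The lists of seed proteases, germination expansins, alternative respiration, heat shock and glutathione transferases, jasmonate and wounding, and anthocyanin had 0 members among 9, 15, 8, 9, 5 and 4 genes at the floor. Over all 13 lists, 10 of 146 genes at the floor were members (6.85%), against 1.13% of all loci at the floor. The lists were chosen with earlier results of these data known, so nothing is read from this difference.

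The ABA and LEA group had 15 members, and all 15 were lower in *sig2-2* than in WT at 1 d although the rule made them higher at 7 d. Over all loci at the floor 55.4% were lower by any amount at 1 d, and the 15 were put together after their values had been seen. The group left out *SAG21*, also a LEA family gene, which was higher in *sig2-2* at 1 d (796 FPKM in WT and 943 FPKM in *sig2-2*). *LEA18* (AT2G35300) had 670.2 FPKM (WT) and 297 FPKM (*sig2-2*) at 1 d, and 2.18 and 7.42 FPKM at 7 d. *HVA22B* (AT5G62490), a homolog of an ABA-induced barley gene, was at 192 and 58.8 FPKM at 1 d and at 0.0755 and 1.62 FPKM at 7 d. *LTI65* (AT5G52300), a desiccation-responsive gene, was at 42.2 and 18.0 FPKM at 1 d and at 0.540 and 2.50 FPKM at 7 d. The order of the genotypes thus turned between the ages, and the levels at 7 d were small. The LEA genes AT3G02480 (2586, 1182, 9.73 and 21.3 FPKM in WT 1 d, *sig2-2* 1 d, WT 7 d and *sig2-2* 7 d) and AT3G15670 (646, 248, 0.472 and 2.03 FPKM) had the same order.

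Regulators in the group included *DREB2A* (AT5G05410), a transcription factor of dehydration responses, with 31.7 and 13.6 FPKM at 1 d and 2.78 and 9.20 FPKM at 7 d in WT and *sig2-2*. *SOM* (AT1G03790), a zinc finger protein that restrains germination, was at 50.8 and 19.8 FPKM at 1 d and at 0.560 and 2.37 FPKM at 7 d. *AFP1* (AT1G69260), a negative regulator of ABA signaling, was at 16.2 and 7.43 FPKM at 1 d and at 3.34 and 11.2 FPKM at 7 d. In the group as a whole, 10 of 15 members were lower by 2-fold or more in *sig2-2* at 1 d, against 1.06% of all loci at the floor and 3.73% of the other loci lower with age in WT. The median log2 difference was -1.16 at 1 d and 1.18 at 7 d, and the rule used WT at 1 d, *sig2-2* at 7 d and WT at 7 d. The listed genes of these pathways, members or not, did not all share the pattern at 1 d. Of 18 abscisic acid and dehydration genes at the floor, 3 were lower by 2-fold and 0 higher, with a median of -0.14. Of 13 seed storage, oil body and LEA genes, 3 were lower and 3 higher. The 3 lower were the LEA genes *LEA18*, *EM1* (-1.59) and *LEA4-5* (-1.36). The 3 higher were the storage protein genes *SESA2* (2.23) and *CRA1* (2.02) and the dehydrin gene *RAB18* (1.39). *EM1* and *LEA4-5* were also lower with age in WT but are not members, since neither was higher by 2-fold in *sig2-2* at 7 d. The NAC factor *RD26* (AT4G27410), at 10.9 and 8.87 FPKM at 1 d and 4.42 and 13.97 FPKM at 7 d, had the highest 1 d value of the group, -0.27, and was the only member of the group above its WT 1 d level in *sig2-2* at 7 d.

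Seed and root hair markers differed between the genotypes at 1 d as well. Of 5 seed or embryo markers, 4 were higher in *sig2-2* at 1 d and 5 at 7 d, and their summed level was 35.7 FPKM (WT) and 121 FPKM (*sig2-2*) at 1 d, and 0.941 and 4.17 FPKM at 7 d. The exception at 1 d was *EM6* (AT2G40170), an embryo LEA gene, with 22.1 FPKM (WT) and 10.7 FPKM (*sig2-2*). *SESA1* and *SESA3*, seed storage albumin genes, were listed at 0 in WT at 7 d. All 4 root hair markers were higher in *sig2-2* at 1 d, with sums of 23.1 and 67.8 FPKM, and at 7 d they summed to 9.26 and 4.41 FPKM. The part of these markers in the members' values was not tested.

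**Figure D2:**
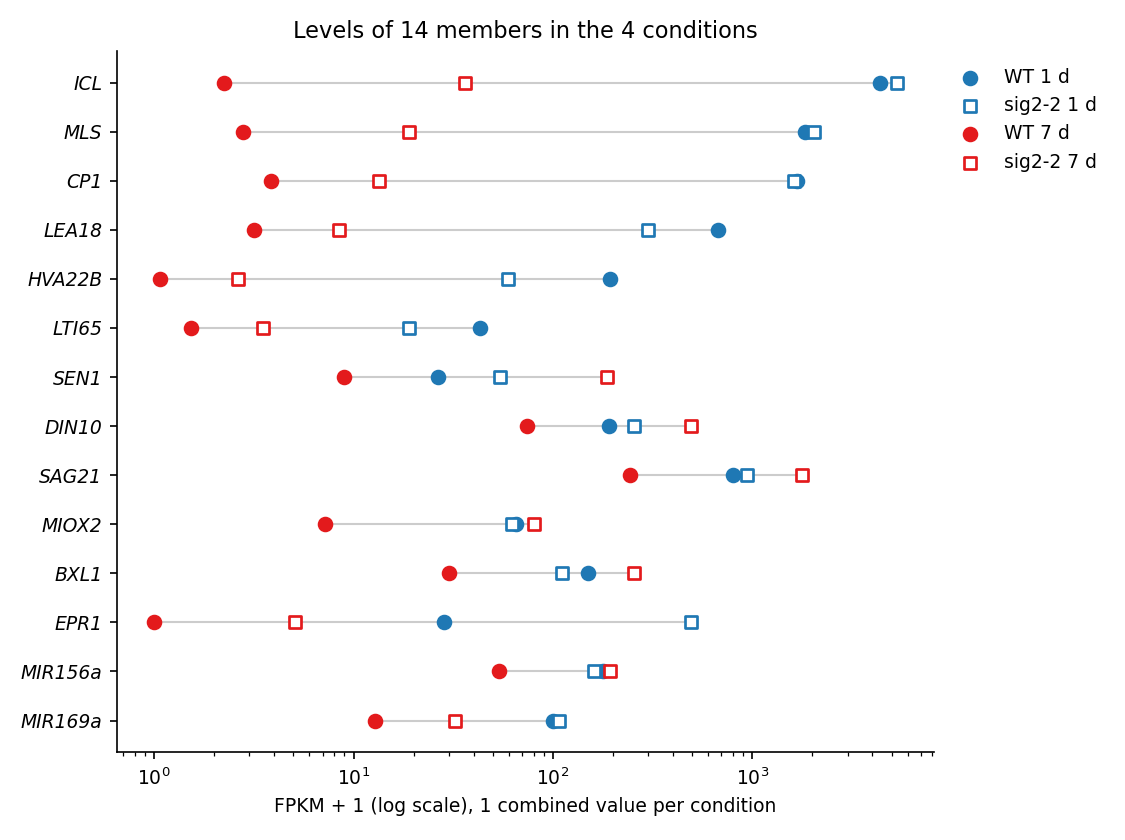
Points give the combined FPKM + 1 (log x axis) of 14 members in WT (filled circles) and *sig2-2* (open squares) at 1 d (blue) and 7 d (red), with 1 value per condition and no error bars. In the lipid, protease and ABA genes the red square lies far below both blue points, whereas for *SEN1*, *DIN10*, *SAG21*, *MIOX2* and *BXL1* it lies above them.

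Genes of sugar and cell wall carbohydrate metabolism gave 12 members. *MIOX2* (AT2G19800), a myo-inositol oxygenase, had 64.2 FPKM (WT) and 61.2 FPKM (*sig2-2*) at 1 d, and 6.21 and 79.5 FPKM at 7 d. *BXL1* (AT5G49360), a β-xylosidase of the cell wall, was at 148 and 109 FPKM at 1 d and at 29.2 and 255 FPKM at 7 d. Both ended in *sig2-2* above the WT level of 1 d, as did 4 of the 12 in all. Over all members 49 of 158 were at or above that level, and over all loci at the floor 5166 of 14002. *TCH4* (AT5G57560), a xyloglucan endotransglucosylase, was at 50.7, 27.3, 11.9 and 51.6 FPKM in WT 1 d, *sig2-2* 1 d, WT 7 d and *sig2-2* 7 d. The UDP-glucose epimerase gene *UGE1* (AT1G12780) was at 116, 106, 27.0 and 90.6 FPKM in the same order, but the table gives its span to a neighboring locus too.

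Sugar transporters of the same group were lower at 7 d than at 1 d in both genotypes. *GPT2* (AT1G61800), a glucose 6-phosphate translocator of plastids, was at 156 and 159 FPKM at 1 d and at 0.484 and 3.92 FPKM at 7 d. *MSS1* (AT5G26340), the hexose transporter STP13, was at 116 and 94.3 FPKM at 1 d and at 5.45 and 16.9 FPKM at 7 d. *STP4* (AT3G19930), a related sugar transporter, was at 99.9, 73.9, 16.8 and 34.7 FPKM in WT 1 d, *sig2-2* 1 d, WT 7 d and *sig2-2* 7 d, and lay just inside the threshold between genotypes. The group's median log2 difference between genotypes was 1.71 at 7 d and -0.36 at 1 d, with 0 members past 2-fold in either direction at 1 d.

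Proteases, their inhibitors and carriers of amino acids gave 10 members. *CP1* (AT4G36880), a cysteine protease, had 1668 FPKM (WT) and 1623 FPKM (*sig2-2*) at 1 d, and 2.87 and 12.4 FPKM at 7 d. *CYS2* (AT2G31980), a cystatin that inhibits such proteases, was at 146 and 58.2 FPKM at 1 d and at 1.92 and 5.44 FPKM at 7 d. The serine carboxypeptidase-like gene *scpl44* (AT1G43780) was at 269.98 and 206 FPKM at 1 d and at 0.0361 and 1.40 FPKM at 7 d. These 3 were all far below their 1 d levels in *sig2-2* as well. *UPI* (AT5G43580), a serine protease inhibitor, differed from them with 107, 72.3, 50.8 and 232 FPKM in WT 1 d, *sig2-2* 1 d, WT 7 d and *sig2-2* 7 d. *LHT1* (AT5G40780), a lysine and histidine transporter, was at 62.1, 41.4, 8.21 and 22.4 FPKM. A cationic amino acid transporter gene, *CAT2* (AT1G58030 by position, although the table lists it under the identifier of a catalase), was at 77.6, 77.9, 36.3 and 102 FPKM.

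Redox genes gave 8 members and regulators 15. *CSD2* (AT2G28190), the Cu/Zn superoxide dismutase of chloroplasts, had 259 FPKM (WT) and 342 FPKM (*sig2-2*) at 1 d, and 129 and 309.7 FPKM at 7 d, and only just met the WT threshold with a log2 change of -1.003. The peroxidase genes AT5G39580 (52.0, 29.4, 7.91 and 40.3 FPKM in WT 1 d, *sig2-2* 1 d, WT 7 d and *sig2-2* 7 d) and AT5G64120 (63.4, 52.2, 30.0 and 129.6 FPKM) had their lowest level in WT at 7 d. Among 15 regulators, *GATA4* (AT3G60530), a GATA zinc finger factor, was at 66.2, 57.5, 30.4 and 66.5 FPKM, so that *sig2-2* at 7 d stood at the WT level of 1 d. *Rap2.6L* (AT5G13330), an ERF family factor, was at 16.5, 18.5, 3.95 and 17.62 FPKM, and *WRKY45* (AT3G01970) was at 5.87, 8.43, 1.71 and 7.57 FPKM. In *sig2-2* at 7 d, 7 of the 15 regulators and 4 of the 8 redox genes were at or above the WT level of 1 d. So were 49 of all 158 members and 5166 of the 14002 loci at the floor. The groups were made after values were seen, and nothing is read from these counts.

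The 4 miRNA precursors among the members encode miRNAs that guide the cleavage of other transcripts. Their mature guide strands are printed 5′ to 3′ from TAIR10.1, with bases 2 to 8, the seed, in capitals.
miR156a-5p: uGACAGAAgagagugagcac
miR163: uUGAAGAGgacuuggaacuucgau
miR169a-5p: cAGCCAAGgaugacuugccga
miR403-3p: uUAGAUUCacgcacaaacucg

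No seed was shared among these 4. *MIR156a* (AT2G25095), whose miRNA targets *SPL* factors and marks the juvenile phase, had 176 FPKM (WT) and 159.7 FPKM (*sig2-2*) at 1 d, and 52.6 and 192 FPKM at 7 d. *MIR169a* (AT3G13405), whose miRNA targets NF-YA subunits, was at 98.6 and 106 FPKM at 1 d and at 11.8 and 31.3 FPKM at 7 d. *MIR163* (AT1G66725) was at 15.5, 12.8, 6.74 and 20.7 FPKM in WT 1 d, *sig2-2* 1 d, WT 7 d and *sig2-2* 7 d. *MIR403* (AT2G47275), whose miRNA targets *AGO2*, was at 17.1, 17.3, 0 and 28.5 FPKM, the 0 being the listed value. These are levels of the precursor locus, and the mature miRNAs were not measured.

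Several tRNA and snoRNA loci were listed at high values in some conditions and at 0 in others. The tRNA locus AT3G27845 had 513 FPKM (WT) and 335 FPKM (*sig2-2*) at 1 d, and was listed at 0 in WT and at 421 FPKM in *sig2-2* at 7 d. *U60.2F* (AT4G25631) was at 340 and 292 FPKM at 1 d and was listed at 0 and at 264 FPKM at 7 d. The tRNA loci AT1G28820 and AT3G29095 were listed with equal values in WT at 1 d (142 FPKM) and in *sig2-2* at 7 d (153 FPKM), and with 0 and 343 FPKM in *sig2-2* at 1 d. In all, 27 members were listed at 0 in WT at 7 d, of which 11 were protein-coding genes of 300 bases or more, and 8 members were listed at 0 in *sig2-2* at 1 d. No fold is given for these, and whether 0 means absence could not be told without the depth of each library.

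All members were repressed with age in WT by the rule, but not all were held up in the mutant. In *sig2-2* itself, 58 of 158 members (36.7%) were lower by 2-fold or more at 7 d than at 1 d, against 18.9% of all loci at the floor and 78.3% of the 2281 other loci lower with age in WT. Another 19 members (12.03%) were higher by 2-fold or more, against 10.8% of all loci at the floor, and 81 stayed within 2-fold. The median log2 change from 1 d to 7 d was -2.54 in WT and -0.38 in *sig2-2* for the members, and -1.36 and -1.40 for the other loci lower with age. Since *sig2-2* at 7 d was used by the rule, nothing is read from these shares.

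The share of the WT fall that was kept off in *sig2-2* was taken as log2((*sig2-2* 7 d + 1)/(WT 7 d + 1)) in percent of log2((WT 1 d + 1)/(WT 7 d + 1)). Its median over the members was 74.8%. It was under 25% in 19 members, from 25% to under 50% in 34, from 50% to under 100% in 56 and at 100% or more in 49. *CP1* (20.4%), *LEA18* (18.20%), *MLS* (29.6%) and *ICL* (36.7%) were at the low end, and *SAG21* (168%), *DIN10* (201%) and *SEN1* (278%) at the high end. By group, the median was 22.0% for ABA and LEA genes, 33.1% for proteases and amino acid genes, 36.7% for lipid use, 80.0% for sugar and cell wall genes, 82.6% for regulators, 106% for redox genes and 184% for starvation and senescence genes.

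**Figure D3:**
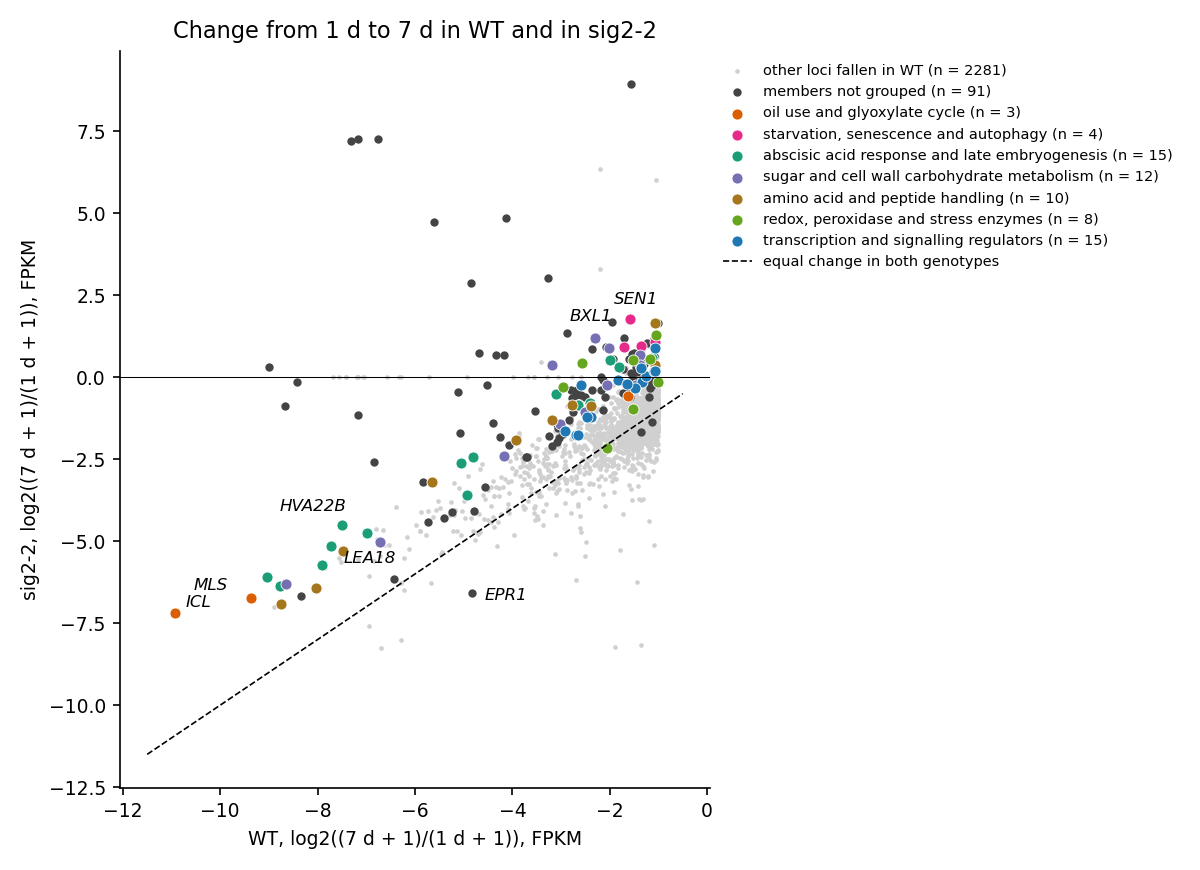
Each point is a locus, with its log2((7 d + 1)/(1 d + 1)) in WT (x axis) and in *sig2-2* (y axis), for the 2281 other loci lower with age in WT (grey) and the 158 members colored by group. Members with steep WT falls such as *ICL* at -10.92 and -7.20 were also lower with age in *sig2-2*, whereas *SEN1* and *BXL1* lie above 0 on the y axis.

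At 1 d, *sig2-2* (the only condition outside the rule) was lower than WT by 2-fold or more for 24 members (15.2%). It was higher by 2-fold or more for 8 (5.06%). Over all 14002 loci at the floor, 1.06% were lower and 0.957% were higher, and among the 2281 other loci lower with age in WT 3.73% were lower and 0.833% were higher. The members' median log2 difference was -0.27, against -0.10 for the other loci lower with age and -0.02 for all loci at the floor. WT at 1 d enters both this difference and the rule, which favors loci that were high in WT at 1 d, and the share of loci lower in *sig2-2* by any amount was 70.3% in the members, 70.7% in the other loci lower with age and 55.4% in all. With both thresholds of the rule at 3-fold, 18.0% of 50 members and 11.1% of 822 other loci lower with age were lower at 1 d. The medians at 3-fold were -0.18 for the members and -0.21 for the other loci, so the members' median was then not the lower. Among protein-coding genes of 300 bases or more, 12.1% of 124 members and 2.33% of the other loci lower with age were lower at 1 d, and among loci at 1 FPKM or more in WT at 7 d these shares were 7.21% of 111 members and 1.44%. The values at 1 d are of combined samples, and the difference between these shares was not tested.

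The 24 members lower at 1 d were of different kinds. Protein-coding genes of 300 bases or more numbered 15, and 10 of the 24 belonged to the ABA and LEA group. Among the 15, AT1G33640 and AT2G07825 reach that length in the annotation only, since their listed spans are under 300 bases. *PMZ* (AT3G28210), a zinc finger gene of stress responses, was at 14.4, 5.06, 1.22 and 3.67 FPKM in WT 1 d, *sig2-2* 1 d, WT 7 d and *sig2-2* 7 d, and *RSU1* (AT3G48130), annotated as a transcribed pseudogene, was at 81.1, 25.1, 2.90 and 9.005 FPKM. Of the 24, 8 were listed at 0 in *sig2-2* at 1 d, 1 of them among the 15 (AT1G33640) and 7 of them short or not protein-coding, such as the tRNA AT1G28990 with 328 FPKM in WT at 1 d and 110 and 489.6 FPKM at 7 d.

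The 8 members higher in *sig2-2* by 2-fold at 1 d were higher at both ages. *EPR1* (AT2G27380), an extensin-like proline-rich protein gene, had 27.4 FPKM (WT) and 489.9 FPKM (*sig2-2*) at 1 d, and was listed at 0 in WT and at 4.10 FPKM in *sig2-2* at 7 d. Its log2 change from 1 d to 7 d was thus -6.59 in *sig2-2* and -4.83 in WT. *LCR67* (AT1G75830), a defensin-like gene, was at 103 and 235 FPKM at 1 d and at 0.199 and 2.302 FPKM at 7 d. The mitochondrial small heat shock protein gene AT5G51440 was at 19.1, 47.1, 3.81 and 9.68 FPKM in WT 1 d, *sig2-2* 1 d, WT 7 d and *sig2-2* 7 d. With *SEN1*, these were the members of the 8 with a gene name or a known product, apart from AT4G27450 at 36.5, 93.5, 16.04 and 36.1 FPKM, and the remaining 3 were short loci.

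**Figure D4:**
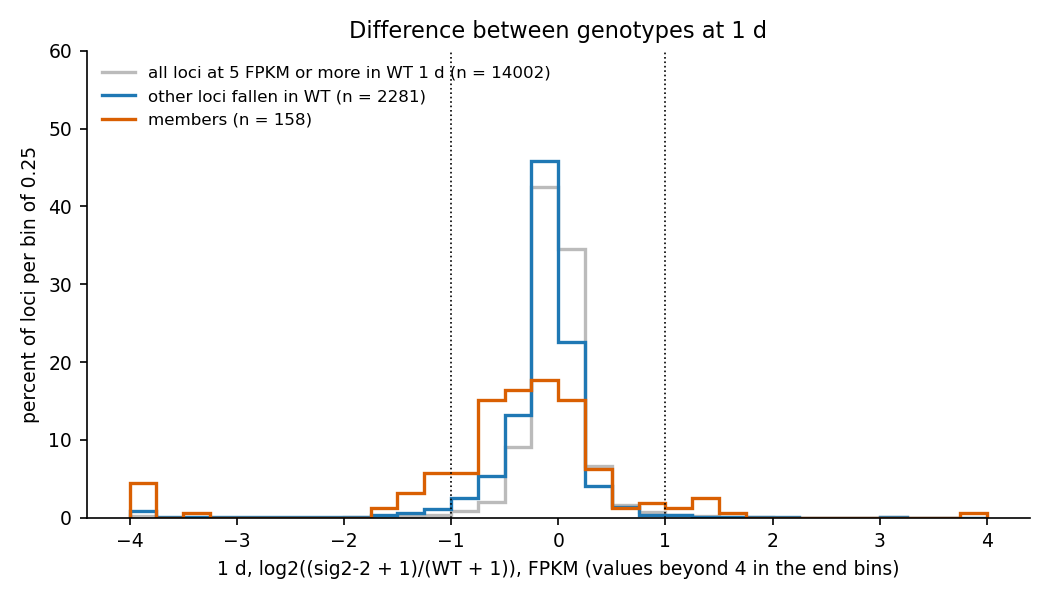
Lines give the percent of loci (y axis) per bin of 0.25 in log2((*sig2-2* + 1)/(WT + 1)) at 1 d (x axis) for members (n = 158), other loci lower with age in WT (n = 2281) and all loci at the floor (n = 14002), with dotted lines at 2-fold. The members spread more widely to both sides, with 24 at or below -1 and 8 at or above 1.

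Further members of high level were *LTP2* (AT2G38530), a lipid transfer protein gene, at 1680.0, 1734, 184 and 405 FPKM in WT 1 d, *sig2-2* 1 d, WT 7 d and *sig2-2* 7 d, and the rRNA loci AT2G01010 and AT3G41768. AT2G01010 was at 6763, 4907, 941 and 1994 FPKM in the same order, and AT3G41768 at 11766, 8510, 1398 and 2888 FPKM. AT2G01021 was at 466704, 328097, 54754 and 121352 FPKM. These 3 ribosomal loci had the same order of conditions. Without them the members held 2.84%, 2.59%, 0.236% and 1.07% of the summed FPKM of the remaining loci. The mRNA kit does not target rRNA, and the part of rRNA carry-over in the values of these 3 loci was not tested. *ORP4C* (AT5G57240), an oxysterol-binding-protein-related gene, was at 14.3, 10.4, 2.61 and 20.5 FPKM, and *ORS1* (AT2G41230), an organ size gene, at 5.68, 8.64, 1.91 and 5.36 FPKM. The remaining protein-coding members of 300 bases or more outside the groups, 57 in all with those named here, had no shared role assigned to them.

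At the edges of the rule, AT5G41071 (5.34 FPKM in WT at 1 d) and AT1G69050 (5.45 FPKM) were just inside the floor, and *BAP1* (4.99 FPKM) and AT1G26921 (4.88 FPKM) just outside it. For the WT fall, *CSD2* and AT5G66650 were inside with log2 changes of -1.003 and -1.015, and AT1G09460 and *FER4* outside with -0.9996 and -0.980. For the difference between genotypes at 7 d, AT2G21820 and *STP4* were inside with log2 values of 1.0006 and 1.004, and the ribosomal loci AT2G01020 and AT3G41979 outside with 0.99 each. Of neighboring loci on a chromosome, 4 pairs of members lay within 5000 bases of each other, among them AT2G01010 with AT2G01021 and AT2G15128 with AT2G15130.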

How the data were processed

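RNA of 12 whole-seedling samples was sequenced as mRNA libraries. With Cufflinks and Cuffdiff, the authors estimated FPKM from the 3 replicates of a condition together, and the deposited tables hold 1 FPKM value per locus and condition. Versions, aligner and genome build are not given in the sources used here. The tables also hold the authors' comparisons between genotypes (log2 ratios, test statistics, p-values, q-values), which were not used. After 4 lines of notes and blanks were dropped, the combined table held 33078 loci, with values identical to those of the single-condition tables.

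Changes were computed as log2 with a pseudocount of 1, a scale that understates the change of low values. The planned tests over replicates could not be run, so no test was made. Members, lists and groups were chosen with earlier results of these data known, and the role groups after values were seen. Identifiers were placed on TAIR10.1 (RefSeq): 154 members lay where their identifier does, and 4 were named from their position. Promoter windows and mature miRNAs were read from that assembly. Some list symbols shared by several genes were settled by hand. *KAT2*, *CRB* and *CHI* were not, and were matched to genes outside the listed pathways (AT4G18290, AT1G09340 and AT2G43570), of which only AT1G09340 was at the floor. Genes were named by a rule (among members with a symbol, the 10 largest differences at 7 d, 10 highest WT 1 d levels, 5 largest WT falls, 5 highest and 5 lowest differences at 1 d, list members and loci at the thresholds), and others after their values were seen. The selection was tested on simulated data. Calculations used Python 3.11.15 with pandas 2.3.3 and numpy 2.4.6.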

Additional observations from a re-analysis of the deposited data

Results flagged for a closer look

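The genotypes stood in opposite order at the 2 ages for 24 members, which were lower by 2-fold or more in *sig2-2* at 1 d and higher by 2-fold or more at 7 d. At 1 d 15.2% of the members were thus lower, against 3.73% of the other loci lower with age in WT and 1.06% of all loci at the floor. Of the 24, 8 were listed at 0 in *sig2-2* at 1 d. Requiring 1 FPKM in WT at 7 d left 8 lower at 1 d. Among protein-coding members of 300 bases or more there were 15 such genes, and 10 of them were ABA and LEA genes such as *HVA22B*, at -1.69 and 1.28 on the log2 scale. That group was put together after values were seen. The difference between the ages was not tested, since each condition has 1 combined value, and the value at 7 d was fixed by the rule.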

How the results depend on the processing

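No paired analysis was possible because the deposited values combine the 3 replicates of a condition, and for the same reason no replicate could be left out. A value counts as moved when it changed by more than 1.5 times. Of 81 alternative values, 55 were not moved, 26 were moved and 0 changed sign. Centring each condition on its median locus gave 150 members, all of them among the 158, and rescaling without AT2G01021 gave 159, of which 156 were among the 158. Centring left out *ABS2*, *AtLEA4-1*, *CSD2*, *STP4*, *XERO1*, AT1G74010, AT2G21820 and AT5G66650, and rescaling left out *CSD2* and AT2G01021.

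A pseudocount of 0.1 gave 254 members, 38 of them lower by 2-fold at 1 d, a median age change in *sig2-2* of -1.05, 129 members lower with age in *sig2-2* and 16 list genes. Thresholds of 1.5-fold gave 437 members, a median at 1 d of -0.18, 38 lower at 1 d, 126 lower with age and 23 list genes. Thresholds of 3-fold gave 50 members, a median at 1 d of -0.18, 9 lower and 3 higher at 1 d, a median age change of -0.18, 16 lower with age and 3 list genes. The other loci lower with age in WT then had a median at 1 d of -0.21. A floor of 20 FPKM gave 104 members and a median age change of -0.87, and a floor of 1 FPKM moved the median age change to -0.23. With settings chosen after seeing the data, protein-coding genes of 300 bases or more left 15 lower and 5 higher at 1 d. Requiring 1 FPKM in WT at 7 d left 8 lower and 4 higher at 1 d, a median age change of -0.22 and 32 lower with age. The ABRE core was in 35.3% of member promoters without the 50 bases after the start.

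The depth of each library is not given in the sources used here, so levels under about 1 FPKM, those of 47 members in WT at 7 d, carry an error that cannot be given.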
